A study of Mus musculus with 6 samples.

Results

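Integrins are the paired receptors by which cells hold on to the matrix around them, and laminins are 3-chain proteins of the basement membrane that many integrins bind. The expression of both families, with the matrix genes Fn1, Nid1, Nid2, Hspg2, Tnc and Vtn, was compared between wild type and FOG-2 Rb- mouse embryonic fibroblasts. Genes were chosen by symbol alone (Itga and Itgb subunits, Lama, Lamb and Lamc chains and those 6 genes), which found 42 of 23748 rows of the expression table, each row being 1 gene: 18 integrin α subunits, 8 integrin β subunits, 10 laminin chains and the other 6. The rule uses no measured value, but it was chosen with earlier results of these data known.

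An integrin is made of 1 α and 1 β subunit, and the pair sets the ligand: some bind collagen, some laminin, and others the short arginine-glycine-aspartate (RGD) sequence of fibronectin and vitronectin. On the inner side the β tail recruits talin, kindlins and further adaptors that connect the receptor to actin. A laminin is built from 1 α, 1 β and 1 γ chain, of which the α chain carries the main receptor-binding domains, and nidogens and perlecan link the laminin network to collagen IV. In embryonic mesenchyme, fibroblasts deposit fibronectin and several laminin chains, and the α chains differ between tissues: α2 is typical of muscle and nerve, α4 of vessels and mesenchyme, α5 of epithelia and mesothelia.

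The arrays held 3 wild type samples and 3 samples from cells with a knock-in FOG-2 (gene Zfpm2, a co-factor of GATA transcription factors) that, by the title of the study, fails to bind the retinoblastoma protein pRb. The labels do not state whether the knock-in allele was carried in 1 or both copies. All samples were fibroblasts from E14.5 embryos, grown in DMEM/F12 with 20% donor bovine serum and taken while proliferating, before any differentiation. Replicates are numbered as experiments, and whether each came from its own embryo or culture is not said; the p-values therefore rest on a spread among samples that could be technical. Every wild type title carries the number 18 and every FOG-2 Rb- title 27, so the genotype and whatever that number marks cannot be told apart. Array medians lay between 5.65 and 5.73 on the log2 scale. Zfpm2 itself fell by 0.29 on the log2 scale (9.68 ± 0.07 to 9.40 ± 0.01, SD, n = 3 each; limma adjusted p = 0.00913). That fall is no check of the labels, because a knock-in that alters protein binding need not change RNA in either direction. Its cause was not tested. Of 10 fibroblast markers, Col1a1, Col1a2, Col3a1, Pdgfra, Pdgfrb and Vim lay above log2 10 in all 6 arrays, Thy1 between 7.26 and 8.18, and Fap between 4.69 and 5.07. Dcn and Lum, also fibroblast markers, were lower in FOG-2 Rb- cells, by 3.41-fold and 2.93-fold, as were Pdgfra (1.87-fold) and Thy1 (1.71-fold).

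Laminin α chain RNA levels differed in FOG-2 Rb- cells: Lama5 and Lama1 were higher, Lama4 and Lama2 lower. The common partner chains Lamb1, Lamb2 and Lamc1 were slightly higher. Among receptors, Itga5, Itgb3 and Itgb5 were higher and Itga8, Itgb8 and Itga1 lower. All but Itga1, a collagen receptor subunit, belong to RGD-binding receptors. Some of these calls were less firm: of 12 other settings of the analysis, Itga1 passed in 5, Itgb8 and Lamb1 in 7 and Lamc1 in 10. In all, 15 of the 42 genes (35.7%) passed limma at an adjusted p under 0.05, against 18% of all rows (4281). The laminin chains, 7 of 10 (70%), made most of this excess. Integrin subunits, with 6 of 26 (23.1%; 11.5% higher and 11.5% lower), were near the share of all rows. Of the 42, 10 rose (23.8%, against 9.44% of all rows) and 5 fell (11.9%, against 8.59%). Their median log2 fold change was 0.01, beside -0.02 over all rows, and the median of the absolute log2 fold change was 0.10 for the 42 and for all rows alike. All arrays of 1 genotype lay above all of the other for 21 of the 42 genes (50%), against 35.6% of all rows. Lama4 and Lama5 passed with a change of 2-fold or more (2 of the 42, against 294 of all 23748 rows).

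**Figure D1:**
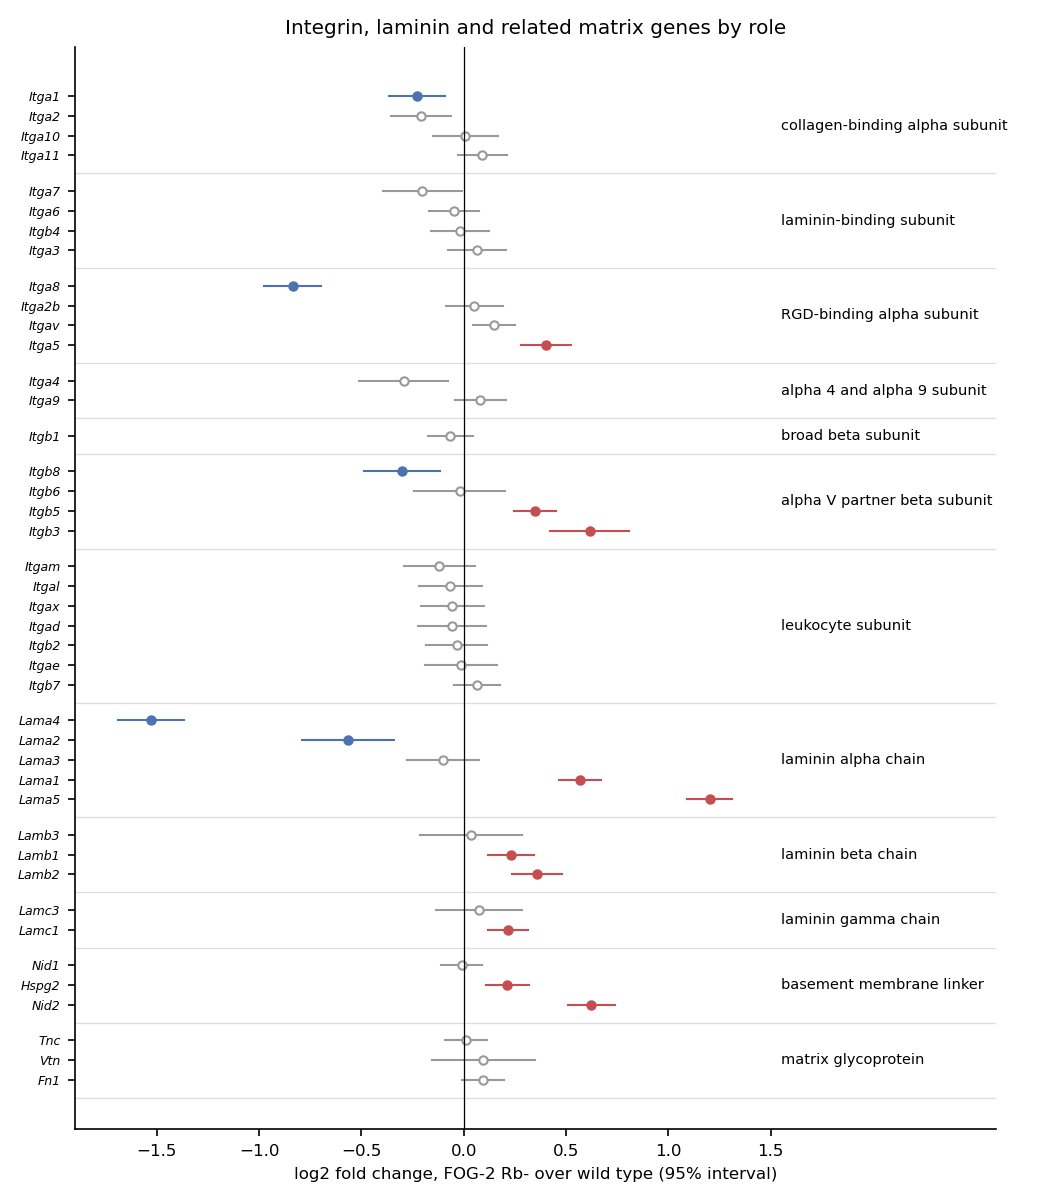
Log2 fold change of FOG-2 Rb- over wild type (x axis, 3 arrays each) for the 42 genes, grouped by role, with limma's 95% interval as a line. Filled points passed the test (red higher, blue lower) and open grey points did not; the laminin α chains span the widest range, from -1.53 for Lama4 to 1.20 for Lama5.

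Of the 42 genes, 10 averaged at or under log2 5.07 in both genotypes, a level that stands here for the low end of the array: it is the 95th percentile of 1071 rows of odorant receptors, which fibroblasts are not known to use. These 10 were Itga4, Itga10, Itgad, Itgae, Itgal, Itgam, Itgax, Itgb6, Lama3 and Vtn, and none of them passed. Fold changes of such genes may be understated. Of the 32 genes above that level in 1 or both genotypes, 15 passed (46.9%), against 28.2% of all rows above it. The shares of all rows given elsewhere include low rows. Without the low rows, 15% rose and 13.2% fell. In cells measured in bulk, fewer cells of a type and less RNA per cell cannot be told apart.

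The laminin α chains came first in size. Log2 expression of Lama5 was 6.64, 6.58 and 6.56 in the wild type arrays, given in replicate order here and for the other genes, and 7.79, 7.81 and 7.78 in the FOG-2 Rb- arrays. Every FOG-2 Rb- array was thus far above every wild type array. The difference was 2.30-fold (adjusted p = 1.55e-05), or 1.20 ± 0.05 (SE) as log2 fold change. Lama4, the α chain of vessel walls and mesenchyme, measured 7.33, 7.41 and 7.55 in wild type and 5.95, 5.86 and 5.89 in FOG-2 Rb- cells. All 3 FOG-2 Rb- arrays lay below the lowest wild type array by more than 1 log2 unit. The fall was 2.89-fold, or -1.53 ± 0.07 (SE) as log2 fold change (adjusted p = 2.61e-05).

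Lama1, the α chain of the earliest embryonic basement membranes, measured 5.07, 5.01 and 5.04 in wild type and 5.61, 5.59 and 5.62 in FOG-2 Rb- cells, without overlap. It rose 1.48-fold (log2 fold change 0.57, SE 0.04, adjusted p = 0.000257), from a wild type mean just under the odorant receptor level. Lama2, whose loss causes a muscular dystrophy, measured 5.58, 5.52 and 5.30 in wild type and 5.05, 4.80 and 4.86 in FOG-2 Rb- cells, again without overlap. The fall was 1.48-fold, or -0.57 ± 0.10 (SE) as log2 fold change (adjusted p = 0.00753), to a FOG-2 Rb- mean of 4.90, under the odorant receptor level. With the p-values of the authors' deposited table after Benjamini-Hochberg adjustment, Lama2 only just passed (adjusted p = 0.04996). Lama3, an α chain of skin and other epithelia, had values of 4.66 to 4.82 in wild type and 4.56 to 4.78 in FOG-2 Rb- cells, which overlap (log2 fold change -0.10, 95% interval -0.28 to 0.08). Thus 2 of the 5 α chains rose, 2 fell and 1 did not pass. That is 40% in each direction, against 9.44% and 8.59% of all rows.

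The RefSeq promoters (GRCm38.p6) of 4 changed genes are shown because FOG-2 acts with GATA factors and pRb with E2F factors, whose core motifs can be looked for there. They are those with the largest rises (Lama5, Itga5) and falls (Itga8, Lama2) among changed genes that matched the promoter table, as 27 of the 42 genes did. Each is the 250 bases before the annotated start, in lower case with motif matches in capitals: chr2:180225860-180226109 for Lama5, chr15:103366792-103367041 for Itga5, chr2:12301945-12302194 for Itga8 and chr10:27616943-27617192 for Lama2, all on the minus strand and written 5′ to 3′.
Lama5: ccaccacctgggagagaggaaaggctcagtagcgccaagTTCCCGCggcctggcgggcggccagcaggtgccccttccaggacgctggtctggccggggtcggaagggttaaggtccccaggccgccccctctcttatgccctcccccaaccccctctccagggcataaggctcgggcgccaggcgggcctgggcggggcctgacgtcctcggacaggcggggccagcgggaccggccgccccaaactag
Itga5: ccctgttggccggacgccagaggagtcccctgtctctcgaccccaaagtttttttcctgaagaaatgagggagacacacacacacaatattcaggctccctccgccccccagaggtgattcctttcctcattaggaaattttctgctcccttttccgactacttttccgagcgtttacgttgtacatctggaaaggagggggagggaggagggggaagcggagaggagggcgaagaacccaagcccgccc
Itga8: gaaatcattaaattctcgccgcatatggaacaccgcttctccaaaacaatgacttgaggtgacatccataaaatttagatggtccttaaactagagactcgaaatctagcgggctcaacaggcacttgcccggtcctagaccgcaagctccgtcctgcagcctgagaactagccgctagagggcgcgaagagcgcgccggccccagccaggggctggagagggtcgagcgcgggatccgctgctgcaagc
Lama2: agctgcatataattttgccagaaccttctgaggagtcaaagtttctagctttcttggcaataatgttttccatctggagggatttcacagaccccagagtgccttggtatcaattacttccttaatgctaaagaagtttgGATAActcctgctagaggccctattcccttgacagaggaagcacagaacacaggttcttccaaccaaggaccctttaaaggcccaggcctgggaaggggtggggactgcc

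The motifs searched, on both strands, were GATAA, the core of GATA sites, and TTCCCGC, a core of E2F sites; they share no overlap in these windows. The Lama2 window held a GATAA match beginning 110 bases before the start, and the Lama5 window a TTCCCGC match beginning 211 bases before it. The Itga5 and Itga8 windows held neither. GATAA occurred in 22.6% of all 32851 promoter windows of this length and TTCCCGC in 3.82%. Among the 10 windows of changed genes, 1 held GATAA and 1 TTCCCGC. A match is a string of letters in a window and not a measured site. GC content was 72.4% in the Lama5 window, 55.6% in that of Itga5, 56.4% in that of Itga8 and 47.2% in that of Lama2, beside a median of 52.4% over all windows.

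The laminin β and γ chains that pair with most α chains rose slightly. Lamb2, the β chain of synapses and the kidney filter, measured 8.96, 8.86 and 8.99 in wild type and 9.28, 9.32 and 9.28 in FOG-2 Rb- cells, a rise of 1.28-fold (log2 fold change 0.36, SE 0.05, adjusted p = 0.00407). Lamb1, the most widespread β chain, measured 10.82, 10.73 and 10.81 against 11.02, 11.03 and 11.01, a rise of 1.17-fold (adjusted p = 0.0167). Lamc1, the γ chain of most laminins, measured 9.90, 9.88 and 9.90 against 10.10, 10.10 and 10.12, a rise of 1.16-fold (adjusted p = 0.0129). None of these 3 genes overlapped between genotypes, which held for 35.6% of all rows and 50.7% of rows above the low range. With 1 array fewer, Lamb1 no longer passed when the array left out was wild type replicate 2 (adjusted p = 0.0568) or FOG-2 Rb- replicate 1 (0.0552), 2 (0.0618) or 3 (0.0553), and the Lamc1 call without FOG-2 Rb- replicate 3 (0.0549). Lamb3, a β chain of epithelial laminin, and Lamc3 overlapped between genotypes, with log2 fold changes of 0.04 (95% interval -0.21 to 0.29) and 0.08 (-0.14 to 0.29). Of the 10 laminin chains, 5 rose and 2 fell, beside 9.44% and 8.59% of all rows.

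Nid2, one of the nidogens that tie laminin to collagen IV, measured 8.24, 8.31 and 8.29 in wild type and 8.85, 8.94 and 8.92 in FOG-2 Rb- cells. The genotypes were well apart, and the rise was 1.54-fold (log2 fold change 0.62, SE 0.05, adjusted p = 0.000284). Its relative Nid1 measured 12.13, 12.10 and 12.11 against 12.10, 12.11 and 12.11. These values overlap, and the 95% interval of the log2 fold change was -0.11 to 0.09. Hspg2, which encodes perlecan, the heparan sulfate proteoglycan of basement membranes, measured 10.69, 10.65 and 10.73 against 10.90, 10.91 and 10.91, a rise of 1.16-fold (adjusted p = 0.0181). Hspg2 no longer passed when wild type replicate 2 was left out (adjusted p = 0.0650) or when FOG-2 Rb- replicate 1 (0.0563), 2 (0.0631) or 3 (0.0649) was.

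**Figure D2:**
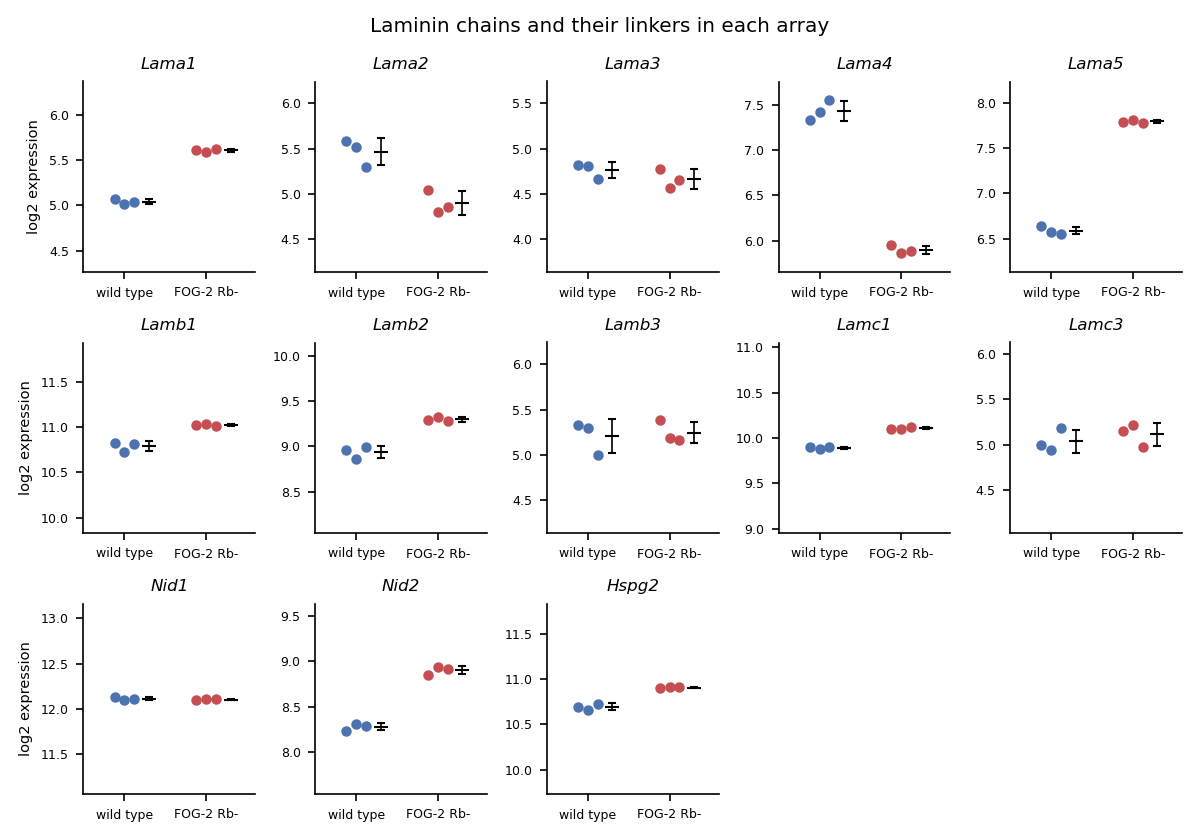
Log2 expression (y axis) of the 10 laminin chains, Nid1, Nid2 and Hspg2 in each of 3 wild type (blue) and 3 FOG-2 Rb- (red) arrays, with the mean and SD in black beside each group; every panel spans the same log2 range, and levels are not comparable between genes. Lama4 drops and Lama5 rises by more than 1 log2 unit, while Nid1 stays near 12.1.

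Fibronectin, tenascin and vitronectin RNA did not pass. Fn1, the fibroblast's main RGD-bearing ligand, measured 12.98, 12.97 and 13.02 in wild type and 13.09, 13.08 and 13.08 in FOG-2 Rb- cells. Its genotypes did not overlap, but the difference was small (log2 fold change 0.10, 95% interval -0.01 to 0.20, adjusted p = 0.192). With a variance prior that depends on intensity, or with the p-values of the authors' deposited table after Benjamini-Hochberg adjustment, Fn1 passed (adjusted p = 0.00143 and 0.0302). Tnc, which encodes tenascin C, a modulator of adhesion, measured 11.17 to 11.21 in wild type and 11.19 to 11.21 in FOG-2 Rb- cells (log2 fold change 0.01, 95% interval -0.09 to 0.11). Vtn, mainly a liver product, overlapped too (0.09, -0.16 to 0.35).

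Among α subunits of RGD-binding integrins, Itga8 fell and Itga5 rose. Itga8 measured 8.61, 8.67 and 8.65 in wild type and 7.72, 7.79 and 7.90 in FOG-2 Rb- cells. The genotypes were far apart, and the fall was 1.79-fold, or -0.84 ± 0.06 (SE) as log2 fold change (adjusted p = 0.00019). The product of Itga8 pairs with β1 and is known from kidney development as the receptor of nephronectin. Itga5, the α subunit of the classical fibronectin receptor, measured 10.58, 10.55 and 10.68 against 10.98, 11.03 and 11.01, without overlap. It rose 1.32-fold (log2 fold change 0.40, SE 0.05, adjusted p = 0.0026). Npnt, the nephronectin gene, which belongs to the basement membrane list given later and was singled out after its values were seen, rose 1.32-fold (8.69 ± 0.06 to 9.09 ± 0.02, SD, n = 3 each; adjusted p = 0.00219).

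Itgav, which encodes αV, the vitronectin receptor subunit that pairs with several β subunits, measured 11.34, 11.34 and 11.29 in wild type and 11.46, 11.47 and 11.49 in FOG-2 Rb- cells. All 3 FOG-2 Rb- arrays were above the wild type arrays, by a log2 fold change of 0.15 (95% interval 0.05 to 0.25) that missed the threshold (adjusted p = 0.0597). It passed with an intensity trend in the variance prior (adjusted p = 0.000606), without rows in the low range of the array (0.0207) and with the p-values of the authors' deposited table after adjustment (0.0167). Itga2b, the platelet αIIb subunit, overlapped between genotypes (log2 fold change 0.05, 95% interval -0.09 to 0.19). The 3 measured platelet-lineage markers (Pf4, Gp9, Ppbp) did not pass either.

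The β partners of αV moved apart. Itgb3 measured 6.32, 6.50 and 6.37 in wild type and 6.96, 7.16 and 6.92 in FOG-2 Rb- cells, a rise of 1.53-fold (log2 fold change 0.62, SE 0.08, adjusted p = 0.00277). Itgb5, a receptor subunit for vitronectin, measured 10.22, 10.24 and 10.27 against 10.57, 10.59 and 10.62, a rise of 1.27-fold (log2 fold change 0.35, SE 0.04, adjusted p = 0.00219). In both genes the lowest FOG-2 Rb- array was clearly above the highest wild type array. Itgb8, whose pair with αV activates latent TGF beta, measured 6.66, 6.47 and 6.66 against 6.41, 6.24 and 6.23, a fall of 1.23-fold (log2 fold change -0.30, SE 0.08, adjusted p = 0.0399). Its groups did not overlap but lay close, and the gene no longer passed when wild type replicate 1 (adjusted p = 0.109) or 3 (0.110) was left out, when FOG-2 Rb- replicate 2 (0.120) or 3 (0.125) was, or with the p-values of the authors' deposited table after adjustment (0.116). Itgb6, an epithelial subunit, was in the low range (log2 fold change -0.02, 95% interval -0.24 to 0.20).

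Itgb1, the partner of most α subunits and a requirement for most matrix adhesion of fibroblasts, measured 12.04, 12.04 and 11.97 in wild type and 11.98, 11.92 and 11.95 in FOG-2 Rb- cells. The groups overlap, and the 95% interval of the log2 fold change was -0.18 to 0.04, so a change of the size seen for Itga8 or Itgb3 lies outside it.

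Of the 4 laminin receptor subunits, 0 passed in limma, which with so few genes is near the 18% of all rows, and the unadjusted p was under 0.05 for 1 of them, Itga7. Itga6 measured 8.98, 8.98 and 8.97 in wild type and 8.99, 8.86 and 8.94 in FOG-2 Rb- cells (log2 fold change -0.05, 95% interval -0.17 to 0.07). Itga3 measured 8.11, 8.26 and 8.23 against 8.27, 8.21 and 8.31 (0.06, -0.08 to 0.20). Both genes encode the α subunits of broad laminin receptors, and both overlapped between genotypes. Itgb4, the hemidesmosome subunit that pairs with α6, overlapped as well (-0.02, -0.16 to 0.12). Itga7, the laminin receptor subunit of muscle, measured 5.89 to 6.11 in wild type and 5.67 to 5.89 in FOG-2 Rb- cells, with the highest FOG-2 Rb- array just under the lowest wild type array (log2 fold change -0.20, adjusted p = 0.149).

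Of the 4 collagen-binding α subunits, 1 fell (25%, against 8.59% of all rows), a share that says little with so few genes. Itga1 measured 6.89, 7.04 and 6.99 in wild type and 6.69, 6.79 and 6.76 in FOG-2 Rb- cells, a fall of 1.17-fold (log2 fold change -0.23, SE 0.06, adjusted p = 0.0355). Its groups did not overlap, but Itga1 no longer passed when wild type replicate 2 (adjusted p = 0.108) or 3 (0.0905) was left out, or any FOG-2 Rb- array (0.112, 0.0686 and 0.0908 for replicates 1 to 3). Nor did it pass with arrays centred on their medians (adjusted p = 0.0705) or with the p-values of the authors' deposited table after adjustment (0.0696). Itga2 measured 7.04, 6.97 and 6.90 against 6.80, 6.81 and 6.67, lower in each FOG-2 Rb- array but short of the threshold (log2 fold change -0.21, adjusted p = 0.0611). It passed without rows in the low range of the array (adjusted p = 0.0305). Itga11, the collagen receptor subunit typical of fibroblasts, measured 10.12, 10.15 and 10.23 against 10.22, 10.27 and 10.28, with overlap (0.09, 95% interval -0.03 to 0.21). Itga10, of cartilage, was in the low range.

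Itga4 and Itga9 encode related subunits that bind VCAM-1, fibronectin and tenascin. Itga4 measured 4.69, 4.98 and 4.94 in wild type and 4.47, 4.65 and 4.62 in FOG-2 Rb- cells, apart by a narrow margin, in the low range and short of the threshold (log2 fold change -0.29, adjusted p = 0.074). It passed without wild type replicate 1 (adjusted p = 0.0194). Itga9 measured 6.73, 6.79 and 6.66 against 6.81, 6.77 and 6.85, with overlap (log2 fold change 0.08, 95% interval -0.04 to 0.21).

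The 7 subunits of leukocyte integrins (Itgad, Itgae, Itgal, Itgam, Itgax, Itgb2, Itgb7) had log2 fold changes from -0.12 to 0.06, and 0 of them passed in limma, at an unadjusted p under 0.05 as well, beside 18% of all rows at the adjusted threshold. The 5 α subunits among them lay in the low range in both genotypes. Of 8 measured leukocyte markers, Ptprc (CD45), Adgre1, Aif1, Fcgr1 and Cd3e lay in the low range too, while Cd68, a lysosomal protein gene not confined to macrophages, rose 1.62-fold and Csf1r 1.26-fold, and Cd14 did not pass (log2 fold change 0.06).

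**Figure D3:**
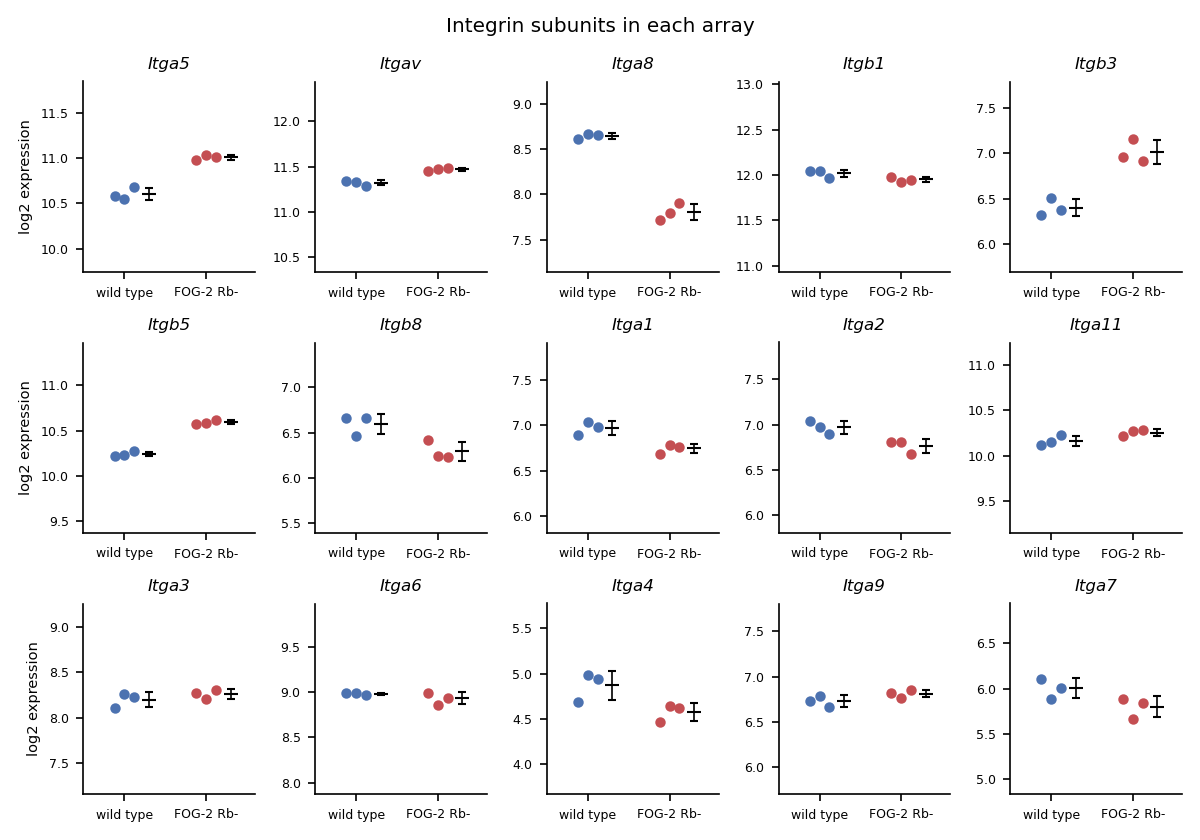
Log2 expression (y axis) of 15 integrin subunits in each of 3 wild type (blue) and 3 FOG-2 Rb- (red) arrays, with the mean and SD in black beside each group; every panel spans the same log2 range, and levels are not comparable between genes. Itga8 drops and Itga5, Itgb3 and Itgb5 rise, while Itgb1, Itga3 and Itga6 overlap between genotypes.

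Other genes of the basement membrane rose more often than they fell. Of 28 measured genes that are no integrin, laminin or linker, 16 rose (57.1%, against 9.44% of all rows) and 2 fell (7.14%, against 8.59%). The other 10 did not pass, and the median log2 fold change of the list was 0.18. Above the low range lay 24 of the 28, and of all rows above it 15% rose and 13.2% fell. These 16 rises became 11 to 12 with any 1 array left out. Col4a6, a collagen IV chain, rose 3.46-fold (5.26 ± 0.04 to 7.06 ± 0.08 on the log2 scale, SD, n = 3 each; adjusted p = 6.88e-06), and its partner chain gene Col4a5 rose 1.56-fold. The calcium-binding matricellular genes Smoc2 and Smoc1 rose 2.78-fold and 2.49-fold. Fras1, whose product anchors epithelia to mesenchyme in the embryo, rose 2.35-fold, and the collagen receptor gene Ddr1 1.52-fold. Hmcn1, a giant matrix protein gene, fell 3.47-fold (7.12 ± 0.11 to 5.32 ± 0.03; adjusted p = 1.29e-05), and Col18a1, the precursor gene of endostatin, fell 1.32-fold (adjusted p = 0.0291). Hmcn1 and Col18a1 made 2 falls in the full fit and 1 fall in the fits that left out wild type replicate 2, wild type replicate 3, FOG-2 Rb- replicate 1 or FOG-2 Rb- replicate 2.

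Many genes of the cytoplasmic and membrane partners of integrins rose by small amounts. Of 38 measured, 19 rose (50%, against 9.44% of all rows), 3 fell (7.89%, against 8.59%) and 16 did not pass, with a median log2 fold change of 0.18. Above the low range lay 35 of the 38, and of all rows above it 15% rose and 13.2% fell. Tns1, which encodes tensin 1, a link between β tails and actin in mature adhesions, rose 2.20-fold (9.20 ± 0.13 to 10.34 ± 0.03 on the log2 scale, SD, n = 3 each; adjusted p = 0.000113), and Tns3 rose 1.31-fold. The LIM domain adaptor genes Tgfb1i1 (Hic-5) and Lpp rose 1.35-fold and 1.34-fold. Of the membrane partners, Cd47 rose 1.46-fold and the tetraspanin gene Cd151, whose product binds laminin-binding integrins, 1.45-fold. The tetraspanin gene Cd9 fell 1.70-fold (adjusted p = 0.000212), and the scaffold gene Bcar1 (p130Cas) and the exchange factor gene Arhgef7 fell 1.17-fold each. The 19 rises became 10 when wild type replicate 2 was left out, 12 when wild type replicate 3 was, and 11 when any single FOG-2 Rb- array was. The 3 falls became 1 in the fits that left out wild type replicate 1, wild type replicate 3, FOG-2 Rb- replicate 1 or FOG-2 Rb- replicate 2.

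Other integrin ligands moved both ways. Of 26 measured, 6 rose (23.1%, against 9.44% of all rows), 3 fell (11.5%, against 8.59%) and 17 did not pass, with a median log2 fold change of 0.00. Ccn3, a matricellular ligand gene of αV and α5 integrins, rose 1.83-fold (adjusted p = 0.00021), and Vcam1, a ligand of α4 and α9 integrins, 1.69-fold. The thrombospondin genes Thbs2 and Thbs3 rose 1.37-fold and 1.35-fold, Postn, encoding periostin, 1.21-fold and the RGD-bearing fibulin gene Fbln5 1.19-fold. Tgfbi, an αV ligand gene, fell 2.25-fold (adjusted p = 1.64e-05), the RGD-bearing gene Edil3 1.67-fold, and the tenascin gene Tnr, in the low range, 1.17-fold.

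**Figure D4:**
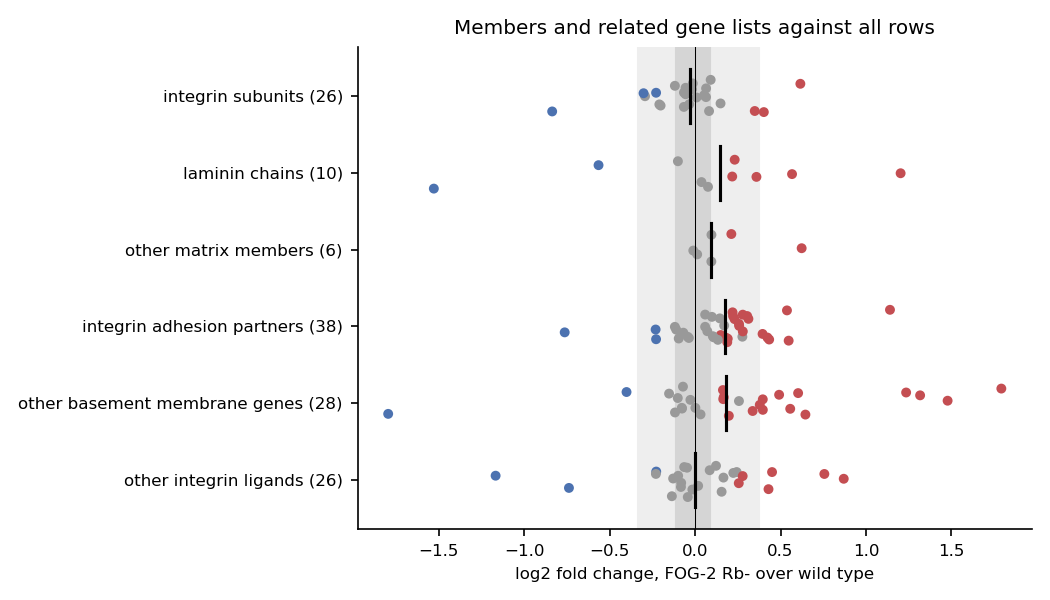
Log2 fold change of FOG-2 Rb- over wild type (x axis) for each gene of 6 groups, with the number of genes in brackets; red points passed as higher, blue as lower, grey did not pass, and the black bar is the group's median. The grey bands span the 5th to 95th (light) and 25th to 75th (dark) percentiles of all 23748 rows; the laminin chains reach further out on both sides than the integrin subunits.

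Some markers of other cell types changed along with these genes. Over all rows, 9.44% rose and 8.59% fell, 18% in either direction. The share that passed was 70% of epithelial and mesothelial, 100% of smooth muscle and 60% of fibroblast markers. It was 25% of leukocyte and 11.1% of endothelial markers, nearer that of all rows in these short lists. Of 10 epithelial and mesothelial markers, 6 rose (Krt18, Krt19, Upk3b, Wt1, Lrrn4, Cldn15), 1 fell (Msln) and 3 did not pass (Cdh1, Epcam, Krt8). Their summed level was 9.33 to 9.40 on the log2 scale in wild type and 9.94 to 10.03 in FOG-2 Rb- cells. Epcam and Lrrn4 lay in the low range in both genotypes. Of 9 endothelial markers, Kdr rose 5.18-fold, 8 did not pass and 6 lay in the low range, including Tek, Tie1 and Emcn; their summed level was 7.93 to 8.09 against 8.66 to 8.70, a gain carried by Kdr, since the list median log2 fold change was -0.01. Of 6 smooth muscle markers, 4 rose (Acta2, Tagln, Lmod1, Des) and 2 fell (Myh11, Cnn1), with a summed level of 13.74 to 13.75 against 13.83 to 13.87. Of 10 fibroblast markers, 2 rose (Col1a1, Col3a1) and 4 fell (Pdgfra, Thy1, Dcn, Lum), with a summed level of 14.81 to 14.85 against 14.78 to 14.80. Leukocyte markers summed to 8.72 to 8.76 against 9.04 to 9.08, with Cd68 the main gain and a list median log2 fold change of -0.04. The 3 platelet-lineage markers summed to 6.45 to 6.62 against 6.63 to 6.68. The part of any of these cell types in the laminin and integrin differences was not tested.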

How the data were processed

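Expression was measured on Affymetrix whole-transcript arrays in 3 samples of each genotype, grouped by their labels. Per the labels' protocols, 270 ng of total RNA per sample was made into biotin-labelled single-stranded DNA. The authors deposited log2 expression values for 23748 rows, made with RMA and Partek per the submitters' processing notes; the versions were not given in the sources used here. Scanner files were not used, so probe background, saturated spots and scan dates are unknown. A second deposited table holds the authors' p-values, ratios of mutant over wild type and signed fold changes. The log2 of its ratios differed from the differences of group means by at most 7.18e-06, and its p-values match an ordinary ANOVA of the same values.

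The platform annotation named 23111 rows with 1 symbol and none of the other 637; the latter entered the fit and every count over all rows, without a name. All rows were fitted with limma 3.58.1 in R 4.3.3 (lmFit, eBayes, genotype only, two-sided), with p-values adjusted by Benjamini-Hochberg across the whole table, and genes passed at 0.05. Adjusted p-values come from this fit unless the text names another. Intervals are limma's 95% intervals. The number of arrays limits the precision. Code was tested on simulated data. The text names all 42 genes, up to 6 per direction with the largest changes in each of 3 further lists, and cell type markers; other names are marked as chosen after their values were seen. The genes, lists and promoter motifs were chosen with earlier results of these data known. Promoter sequences are from RefSeq (GRCm38.p6). Alternatives left out each array, added the replicate number as a block, and changed the variance prior, normalization, centring, low rows and test. Deviations of same-numbered arrays from their group means correlated at 0.00 to 0.03, so the numbers were not taken as pairs.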

Additional observations from a re-analysis of the deposited data

How the results depend on the processing

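Under the 12 alternatives, 10 of the 15 changed genes kept their call throughout (Lama5, Lama4, Lama1, Lama2, Lamb2, Nid2, Itga8, Itga5, Itgb3, Itgb5), 5 lost it at least once, 4 others gained one, and no called value changed sign; 8 genes that did not pass turned sign under some setting. With 1 array left out, 7 to 10 of the 42 genes rose and 3 to 5 fell (3 when the array left out was wild type replicate 3, FOG-2 Rb- replicate 2 or FOG-2 Rb- replicate 3); over all rows 1492 to 1856 rose and 1313 to 1668 fell, lowest without FOG-2 Rb- replicate 3. Integrin partners then counted 10 to 13 higher and 1 to 2 lower, other basement membrane genes 11 to 12 higher and 1 to 2 lower, and other ligands 6 to 7 higher and 2 to 3 lower. With the ANOVA p-values, 3 of the 42 genes and 1 other basement membrane gene fell. With an intensity trend 10 other ligands rose, and without low rows 11. With the replicate number as a block, 7 of the 42 genes rose and 6 fell (Lamb1, Lamc1 and Hspg2 no longer passed and Itga4 did), and integrin partners counted 11 higher and 1 lower; the numbers are not known to pair samples, and not every array correlated best with its own number. The causes were not tested. Signal over background could not be examined, so the low range rests on odorant receptor rows, and 3 arrays per genotype limit what small changes can be shown.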

Other observations

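Matrix receptors outside the integrin family, listed after the integrin values had been seen, changed in both directions. Of 12 measured, 3 rose and 3 fell (25% each, against 9.44% and 8.59% of all rows). Ddr1, Dag1 and Bcam were already counted among the other basement membrane genes. The proteoglycan gene Cspg4 (NG2) had log2 values of 7.91, 7.78 and 7.85 in wild type and 6.89, 6.80 and 6.81 in FOG-2 Rb- cells, a fall of 2.02-fold (log2 fold change -1.01, SE 0.06, limma adjusted p = 6.66e-05). The genotypes did not overlap. The adhesion molecule gene Mcam fell 1.20-fold and the syndecan gene Sdc4, a fibronectin co-receptor, 1.15-fold, while Ddr1 rose 1.52-fold, Sdc1 1.13-fold and the dystroglycan gene Dag1 1.12-fold. The hyaluronan receptor gene Cd44 (log2 fold change -0.16, adjusted p = 0.0504), Sdc3 (-0.17, 0.0572) and the laminin α5 receptor gene Bcam (0.26, 0.0605) came close to the threshold without passing.

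Of 8 tetraspanin genes, a list also drawn up late, Cd151 and Tspan4 rose (1.45-fold and 1.26-fold), Cd9 fell (1.70-fold) and 5 did not pass. That is 25% higher and 12.5% lower, against 9.44% and 8.59% of all rows. Cd151 and Cd9 were already counted among the integrin partners. Cd81 measured 12.81 to 12.87 in wild type and 12.78 to 12.84 in FOG-2 Rb- cells. Genes whose names resemble integrins but fell outside the choice did not pass: Itgbl1 had a log2 fold change of 0.00 (95% interval -0.14 to 0.14), Itgb2l of 0.11 and Itgb3bp of -0.02.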
